A study of Mus musculus with 96 samples.

Results

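H3K4me3 was compared directly between neurons of Ogg1-/- and Mutyh-/- mice. The 6 libraries were the 3 replicates of each knockout from the H3K4me3 table of NeuN+ hippocampal nuclei, out of 96 samples in the series, and all 12628 consensus peaks of that table were tested. The comparison asks whether losing 1 glycosylase or the other leaves H3K4me3 in neurons at different levels. Mice were male, on a C57BL/6N background and 6 months old. Ogg1-/- mice lacked Ogg1 and kept Mutyh, Mutyh-/- mice lacked Mutyh and kept Ogg1, and each replicate was a pool of hippocampi of several animals of 1 genotype. Nuclei had been sorted on NeuN, a nuclear protein of neurons, so NeuN+ nuclei are neuronal and mix several neuron types. Wild-type (WT) and double knockout (DKO) libraries did not enter the contrast, and WT values are given as background.

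OGG1 and MUTYH are DNA glycosylases that act on the same lesion, 8-oxoguanine. OGG1 cuts the oxidised guanine out where it is paired with cytosine, and MUTYH removes an adenine that was placed opposite to it. H3K4me3 is a histone mark laid down by the SET1 and MLL methyltransferases at the starts of active genes, most strongly at promoters rich in CpG.

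Values are scaled reads, that is the reads recovered for each 401 bp peak window divided by the effective library size (trimmed mean of M-values, TMM) and multiplied by its mean over the 6 libraries. Means are given ± SD over 3 libraries. Log2 fold changes are Ogg1-/- minus Mutyh-/- on the log2(scaled reads + 1) scale, which understates changes at low peaks, with their standard error (SE) and limma-trend p. Peaks whose log2 fold change was over 0.5 in size, with an unadjusted p under 0.05, are called differentially enriched regions (DERs).

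No peak separated the knockouts after correction for multiple testing. Among promoters higher in Ogg1-/- the smallest p were at Cnot6, Faf2 and Iqcb1, each with a log2 fold change of 0.96 or 0.97, and among lower ones at Lzic and Ache. Genes of base excision repair, H3K4 methylation, Polycomb and DNA methylation held 0 DERs among 85 peaks, where DERs made up 4.03% of all peaks, so few would be counted at that share. Among peaks of vesicle release genes, a Unc13a peak was higher and a Syt2 peak lower in Ogg1-/-, while another Syt2 window was not a DER. The glutamate scaffold genes Dlg4 and Homer2 were lower, with overlap between the knockouts, and neither was a DER without Ogg1-/- replicate 2 or without Mutyh-/- replicate 2.

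The sequences below show the kind of DNA behind these values. Each is the central 300 bases of a 401 bp window, read on the plus strand of GRCm38.p6 from RefSeq, with CG dinucleotides in capitals. They are the promoter of the targeted gene Ogg1 (chr6:113326873-113327172), the promoter peaks of Cnot6 (chr11:49712197-49712496) and Ache (chr5:137288313-137288612), which were among the smallest p in each direction, the Dlg4 peak (chr11:70019227-70019526), and the Vmn1r77 peak (chr7:12010577-12010876), which had the smallest p of all.
Ogg1: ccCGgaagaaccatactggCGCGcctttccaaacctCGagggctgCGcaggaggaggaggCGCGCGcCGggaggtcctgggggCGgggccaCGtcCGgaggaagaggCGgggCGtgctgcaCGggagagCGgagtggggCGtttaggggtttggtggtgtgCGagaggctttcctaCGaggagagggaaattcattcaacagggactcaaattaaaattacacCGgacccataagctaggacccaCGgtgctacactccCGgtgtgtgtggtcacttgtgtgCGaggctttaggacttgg
Cnot6: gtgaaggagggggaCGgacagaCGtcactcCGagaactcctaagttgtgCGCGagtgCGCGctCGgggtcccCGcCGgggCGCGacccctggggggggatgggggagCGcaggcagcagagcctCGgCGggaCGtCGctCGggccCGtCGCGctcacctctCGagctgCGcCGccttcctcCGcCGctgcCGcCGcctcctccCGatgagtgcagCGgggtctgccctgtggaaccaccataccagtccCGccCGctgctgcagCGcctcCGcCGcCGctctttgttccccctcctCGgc
Ache: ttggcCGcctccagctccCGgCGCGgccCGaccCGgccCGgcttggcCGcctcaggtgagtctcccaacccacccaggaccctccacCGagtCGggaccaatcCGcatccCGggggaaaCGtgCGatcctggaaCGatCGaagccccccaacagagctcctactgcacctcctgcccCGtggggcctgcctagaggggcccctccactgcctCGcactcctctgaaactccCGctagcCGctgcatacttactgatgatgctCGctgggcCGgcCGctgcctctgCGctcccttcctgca
Dlg4: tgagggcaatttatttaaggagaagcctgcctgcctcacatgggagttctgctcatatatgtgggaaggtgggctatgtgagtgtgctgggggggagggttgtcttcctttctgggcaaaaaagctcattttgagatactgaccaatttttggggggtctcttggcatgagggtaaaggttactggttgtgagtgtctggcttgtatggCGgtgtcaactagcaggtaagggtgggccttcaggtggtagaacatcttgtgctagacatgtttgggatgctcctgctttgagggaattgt
Vmn1r77: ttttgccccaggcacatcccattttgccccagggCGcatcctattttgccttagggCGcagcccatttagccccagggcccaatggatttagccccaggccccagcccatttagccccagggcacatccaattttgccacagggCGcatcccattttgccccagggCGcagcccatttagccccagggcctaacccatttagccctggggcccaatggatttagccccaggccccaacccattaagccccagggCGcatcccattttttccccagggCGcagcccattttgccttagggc
The Cnot6, Ache and Ogg1 stretches held 37, 24 and 23 CG dinucleotides, against a median of 26 over all windows. The Dlg4 stretch, which lies 298 bp from an annotated start, held 1. The Vmn1r77 stretch held 6, and 3.98% of all windows had as few or fewer.

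The targeted genes were looked at first. Ogg1 had a promoter peak at chr6:113326823-113327223, with 15.4, 16 and 14.2 scaled reads in Mutyh-/-, 18.1, 9.25 and 10.4 in Ogg1-/- and 14.3, 8.49 and 10.8 in WT. The knockouts overlapped, and the log2 fold change was -0.31 with a 95% interval of -1.27 to 0.65. The promoter mark was thus still counted in Ogg1-/- neurons, and since the window need not lie in the deleted part it does not check the genotype. No consensus peak in neurons was annotated to Mutyh, and peaks annotated to its neighbours were not searched, so its promoter was not compared. Within 10 Mb of Ogg1, 4 of 107 peaks were DERs, (3.74%), and within 10 Mb of Mutyh 7 of 177 (3.95%), shares close to the 4.03% of all peaks.

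Across all peaks, 509 of 12628 were DERs (4.03%), 260 of them higher in Ogg1-/- (2.06%) and 249 lower (1.97%). None passed an adjusted p of 0.05 (0%), the smallest being 0.943 in limma, while 517 peaks (4.09%) had an unadjusted p under 0.05. The edgeR quasi-likelihood test gave 458 such peaks and a smallest adjusted p of 0.718, and DESeq2 gave 279 and 0.894, with 0 adjusted calls in both. With the library factors of the authors in place of TMM, the median of all peaks moved to 0.14 and DERs numbered 185, of which 79.5% were higher in Ogg1-/- against 51.1%. The groups did not overlap at 1277 peaks (10.1%), 671 with all Ogg1-/- libraries above (5.31%) and 606 with all below (4.8%).

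The precision of 3 libraries against 3 was measured by the width of the intervals. Over all peaks the log2 fold change had a median of -0.00011, and the middle 50% of peaks lay between -0.24 and 0.24. The 95% interval stayed inside a 2-fold difference in either direction at 7065 peaks (55.9%) and inside a 1.5-fold difference at 635 (5.03%). At most peaks the interval, which is not adjusted for the number of peaks, thus reached beyond a 1.5-fold difference. The depth was a median of 22 reads per peak and library. These intervals do not say which differences could be detected, and larger ones did not pass correction either.

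**Figure D1:**
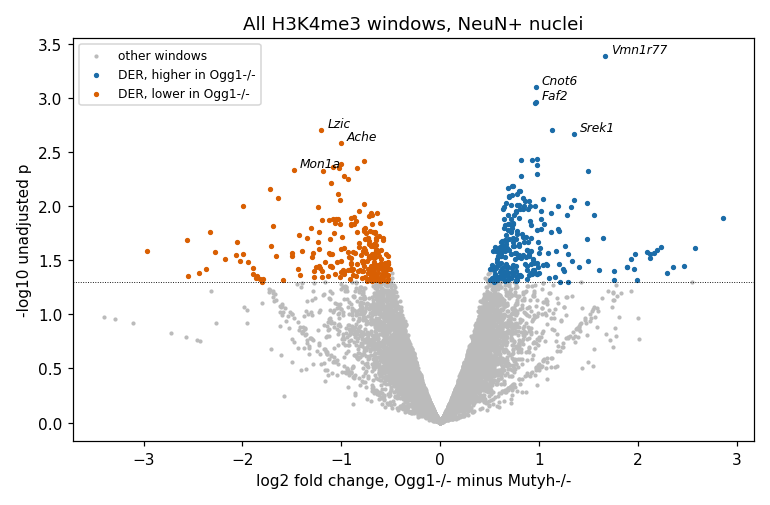
Log2 fold change (Ogg1-/- minus Mutyh-/-) on the horizontal axis against -log10 of the unadjusted limma p on the vertical axis, 1 point per peak, with the dotted line at an unadjusted p of 0.05. The 260 blue DERs and 249 orange DERs spread evenly to both sides, and Vmn1r77, Cnot6 and Faf2 stand at the top on the right.

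Libraries of 1 knockout resembled each other about as much as they resembled those of the other. The mean Spearman correlation over peaks was 0.594 for the 6 pairs within a genotype and 0.596 for the 9 pairs between genotypes. Reads in peaks ranged from 217669 to 378371 in Mutyh-/- and from 205257 to 548706 in Ogg1-/-, where replicate 3 was the deepest library and replicate 2 the shallowest. Total reads did not separate the knockouts (exact two-sided permutation test p = 0.9, with 0.1 the smallest that the design allows).

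Mutyh-/- replicate 1 stood apart from the other 5 libraries. Repeat peaks, windows with at least 50% soft-masked bases, took 4.33% of its reads against 0.121% to 0.335% elsewhere. Whether the authors had subtracted input reads, which would change such values, is not given in the sources used here. Its share of reads in promoter peaks was 90.7% against 95.5% to 95.8%, and its share in the top 10% of peaks by WT level 18.9% against 14.3% to 14.8%. The promoter share averaged 94.0% ± 2.88 in Mutyh-/- and 95.6% ± 0.159 in Ogg1-/- (exact two-sided permutation test p = 0.6), and the top share 15.9% ± 2.65 and 14.7% ± 0.195 (p = 1 by the same exact test, adjusted p = 1 over the 3 tests for all of them). Without Mutyh-/- replicate 1, 453 peaks were DERs, 228 of which were DERs in the same direction with all libraries.

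**Figure D2:**
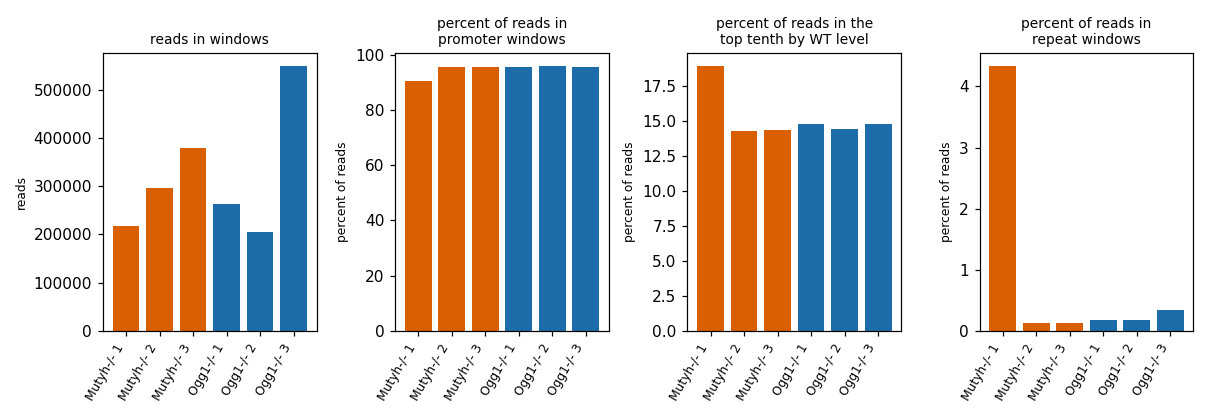
Reads in peak windows and the percent of reads in promoter, top 10% and repeat windows for each of the 6 libraries, with Mutyh-/- in orange and Ogg1-/- in blue. Mutyh-/- replicate 1 has the highest repeat share (4.33%) and the lowest promoter share (90.7%), and Ogg1-/- replicate 3 has the most reads (548706).

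Among promoters higher in Ogg1-/-, Cnot6 had the smallest p. It encodes a deadenylase of the CCR4-NOT complex, which shortens the poly(A) tails of mRNAs. Its peak at chr11:49712147-49712547 held 29.2, 24.5 and 28.4 scaled reads in Mutyh-/-, 43.4, 69.4 and 53.0 in Ogg1-/- and 41.6, 32.5 and 49.8 in WT. The knockouts did not overlap and WT lay between their means, with a log2 fold change of 0.97 (SE 0.23, 95% interval 0.47 to 1.46, adjusted p = 0.943).

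Faf2 encodes a protein that helps to draw misfolded proteins out of the endoplasmic reticulum. Its promoter peak at chr13:54621896-54622296 held 24.6, 22.4 and 20.9 scaled reads in Mutyh-/-, 42.2, 57.1 and 38.0 in Ogg1-/- and 39.2, 32.5 and 28.1 in WT. All Mutyh-/- libraries were below all WT and all Ogg1-/- libraries, with a log2 fold change of 0.97 (SE 0.24, 95% interval 0.45 to 1.48). Iqcb1, which encodes a protein of the primary cilium, shared its window (chr16:36828380-36828780) with the promoter of Eaf2 on the other strand. Scaled reads there were 18.4, 24.5 and 29.2 in Mutyh-/-, 47.0, 50.9 and 43.2 in Ogg1-/- and 33.3, 38.2 and 41.1 in WT, in the same order of groups, and the log2 fold change was 0.96 (SE 0.24, 95% interval 0.44 to 1.47).

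Srek1, a splicing regulator, had the lowest Mutyh-/- level of the promoters in this group. Its peak at chr13:103773968-103774368 held 7.68, 13.9 and 11.7 scaled reads in Mutyh-/-, 28.9, 33.9 and 25.4 in Ogg1-/- and 23.8, 21.2 and 31.4 in WT. WT overlapped Ogg1-/- and lay wholly above Mutyh-/-, and the log2 fold change was 1.36 (SE 0.37, 95% interval 0.57 to 2.15). Endog and Chchd3 encode mitochondrial proteins, a nuclease and a component of the complex that shapes the inner membrane folds. The Endog peak averaged 16.1 ± 4.97 scaled reads in Mutyh-/-, 35.5 ± 4.4 in Ogg1-/- and 22.0 ± 10.0 in WT (log2 fold change 1.13, SE 0.31). At Chchd3 the averages were 19.5 ± 4.70, 39.7 ± 11.7 and 39.1 ± 10.8 in the same order (log2 fold change 0.98, SE 0.29), so WT was level with Ogg1-/-.

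The promoters of Sirpa, the receptor for CD47, Dgkd, a diacylglycerol kinase, and Scrn1 completed the group. Sirpa averaged 18.7 ± 5.21 scaled reads in Mutyh-/- and 37.3 ± 6.56 in Ogg1-/- (log2 fold change 0.98, SE 0.29). Dgkd averaged 26.7 ± 9.92 and 49.2 ± 4.33 (log2 fold change 0.93, SE 0.27), and Scrn1 24.3 ± 5.05 and 43.2 ± 4.13 (log2 fold change 0.82, SE 0.24). None of the 3 overlapped between the knockouts.

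The peak with the smallest p of all was not at a promoter. It lay at chr7:12010527-12010927, distal to genes, at -30372 bp from its nearest annotated start, that of the vomeronasal receptor gene Vmn1r77, and 65.1% of its bases were masked as repeat. It held 13.8, 6.40 and 11.7 scaled reads in Mutyh-/- and 31.3, 43.2 and 30.0 in Ogg1-/-, and the log2 fold change came to 1.66 (SE 0.38, 95% interval 0.87 to 2.46, adjusted p = 0.943). WT spanned 28.5, 2.83 and 15.1, from below all Mutyh-/- libraries to close to the lowest Ogg1-/- library, so WT alone spanned a range about as wide as the difference between the knockout means. Whether the window has near-identical copies elsewhere was not tested.

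Among promoters lower in Ogg1-/-, Lzic had the smallest p. Its window (chr4:149485328-149485728) also covers the promoter of Nmnat1, on the other strand, which encodes a nuclear enzyme of NAD synthesis. It held 27.7, 45.9 and 49.2 scaled reads in Mutyh-/-, 14.5, 12.3 and 25.9 in Ogg1-/- and 30.9, 12.7 and 22.7 in WT. WT overlapped both knockouts, and the log2 fold change was -1.20 (SE 0.33, 95% interval -1.89 to -0.51, adjusted p = 0.943).

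Ache encodes acetylcholinesterase, which breaks down acetylcholine at synapses. Its promoter peak at chr5:137288263-137288663 held 41.5, 40.6 and 32.6 scaled reads in Mutyh-/-, 14.5, 17.0 and 25.4 in Ogg1-/- and 16.6, 18.4 and 17.3 in WT. Here WT lay within the Ogg1-/- range and all Mutyh-/- libraries stood above both, and the log2 fold change was -1.01 (SE 0.28, 95% interval -1.61 to -0.41). At most of the other lower promoters the WT mean was closer to Mutyh-/-.

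Rab5c and Mon1a act in the endosomal pathway, Rab5c as a small GTPase of early endosomes and Mon1a in the complex that activates Rab7 on maturing ones. The peak of Rab5c (chr11:100737759-100738159) held 26.1, 36.3 and 28.4 scaled reads in Mutyh-/-, 13.3, 12.3 and 15.6 in Ogg1-/- and 21.4, 36.8 and 30.3 in WT, and the log2 fold change came to -1.08 (SE 0.33, 95% interval -1.77 to -0.39). All Ogg1-/- libraries lay below all WT libraries there. Mon1a (chr9:107888037-107888437) held 41.5, 24.5 and 25, 4.82, 10.8 and 17.9 and 14.3, 24.1 and 21.6 in the same order of groups, with a log2 fold change of -1.48 (SE 0.45, 95% interval -2.44 to -0.53). WT overlapped Ogg1-/- at Mon1a but not at Rab5c.

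Ndufb2 encodes an accessory subunit of respiratory complex I. Its promoter averaged 35.1 ± 4.95 scaled reads in Mutyh-/-, 16.1 ± 7.34 in Ogg1-/- and 30.1 ± 12.6 in WT (log2 fold change -1.18, SE 0.36). Zcchc2, a zinc finger gene, averaged 34.9 ± 3.14, 17.4 ± 5.38 and 37.2 ± 13.7 (log2 fold change -1.0, SE 0.30), and Fam234a 34.7 ± 4.77, 17.1 ± 6.09 and 34.1 ± 7.69 (log2 fold change -1.02, SE 0.31). In all 3 the WT mean was closer to Mutyh-/- than to Ogg1-/-. Col19a1, a collagen gene, Fam171b and the window annotated to the microRNA gene Mir3081 had log2 fold changes of -0.97, -0.84 and -0.77, with SEs of 0.30, 0.26 and 0.23.

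**Figure D3:**
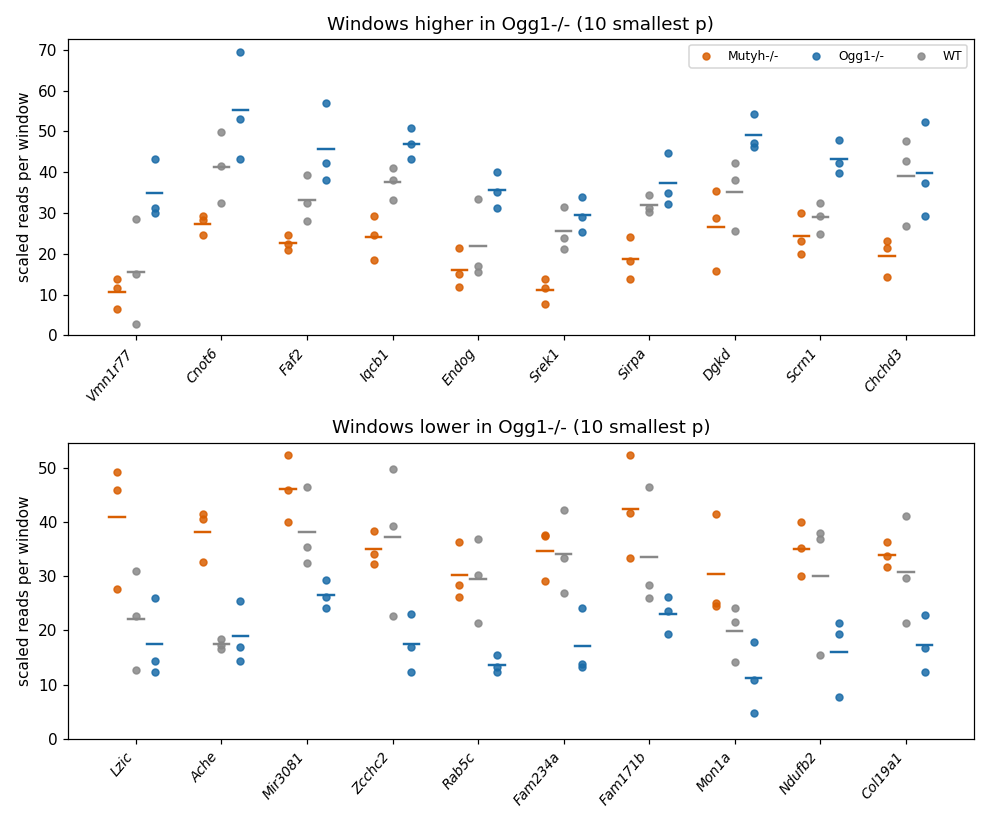
Scaled reads per library at the 10 peaks with the smallest p in each direction, with Mutyh-/- in orange, WT in grey and Ogg1-/- in blue, 1 point per library and a bar at the mean of 3. The knockouts do not overlap at any of the 20 peaks, which the choice of peaks required, and the 3 grey points lie mostly between or across them.

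WT and DKO libraries were not used in the contrast. DERs were chosen for a difference between the knockouts, so any other group falls between their means at most of them, and the counts are a description. The WT mean was between the knockout means at 209 of the 260 DERs higher in Ogg1-/- and at 208 of the 249 lower ones. On the log2(scaled reads + 1) scale it was closer to Ogg1-/- at 149 of the higher DERs and closer to Mutyh-/- at 144 of the lower ones. Among the 10 named higher peaks WT was closer to Ogg1-/- at 6 on this scale and at 4 by the linear means, and among the 10 named lower peaks closer to Mutyh-/- at 8 and at 7. DKO means lay between the knockout means at 209 of the higher and 193 of the lower DERs.

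The gene lists held 291 of 347 genes with a peak annotated to them within 3 kb of the start. Genes called without a peak here and below may lie at a peak annotated to a neighbour, which was not searched. Of the 328 peaks of the lists, 16 were DERs (4.88%, against 4.03% of all peaks), 11 higher and 5 lower in Ogg1-/-. The median log2 fold change over these peaks was -0.03, against -0.00011 over all peaks. Adjusted calls numbered 0 of 328 in limma. Leaving out a library gave 6 (without Ogg1-/- replicate 2) to 17 DERs, and the factors of the authors gave 7. Each list below with 1 to 4 DERs lost some of them in this way, axon guidance all without Ogg1-/- replicate 1 or 2, antioxidant defence without Mutyh-/- replicate 1 or Ogg1-/- replicate 2, and interneurons without Ogg1-/- replicate 1. Lists with 0 DERs came to at most 2 when a library was left out and to at most 1 by limma voom.

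The repair pathway in which both glycosylases act had 0 DERs. Base excision repair was represented by 20 of 26 genes, whose median log2 fold change was -0.10, and genes without a peak were Mutyh, Neil3, Mbd4, Apex2, Lig1 and Pold1. The glycosylase Neil1 had the smallest p among peaks lower in Ogg1-/-, with 13.8, 27.7 and 18.4 scaled reads in Mutyh-/- and 4.82, 21.6 and 11.5 in Ogg1-/-, which overlap (log2 fold change -0.78, 95% interval -1.87 to 0.32). Parp1, a sensor of DNA breaks, had the smallest p among higher ones at 26.1, 33.1 and 25 and 26.5, 49.3 and 34.0 (log2 fold change 0.34, 95% interval -0.23 to 0.90). The intervals of 12 of the 20 peaks stayed inside a 2-fold difference, among them Apex1, the endonuclease that follows the glycosylases (-0.71 to 0.65), and Polb, the polymerase that fills the gap (-0.50 to 0.66).

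Writers and erasers of chromatin marks had 0 DERs as well. In the H3K4 methylation list all 24 genes had a peak, with a median log2 fold change of -0.07. Kmt2b, an H3K4 methyltransferase, stood at 0.46 (SE 0.27) and Dpy30, a core subunit of these enzymes, at -0.61 (SE 0.32). Of 26 Polycomb peaks the median was -0.01, with Pcgf2 at 0.76 (SE 0.57) and Phf1 at -0.48 (SE 0.29), and 21 of the 26 intervals stayed inside a 2-fold difference. DNA methylation genes had 15 peaks and a median of -0.09. Tet1, which oxidises methylated cytosine, was at -0.84 (SE 0.70), and the methyl-CpG binding gene Mbd1 at 0.20 (SE 0.31), a direction that turned without Mutyh-/- replicate 1.

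Synaptic vesicle release held 3 DERs among 33 peaks (9.09%, against 4.03% of all peaks), of which 2 are described here. Unc13a, which primes vesicles for fusion, held 23.1, 13.9 and 16.7 scaled reads in Mutyh-/-, 26.5, 40.1 and 35.1 in Ogg1-/- and 29.7, 29.7 and 21.6 in WT, and the knockouts did not overlap (log2 fold change 0.90, SE 0.30, 95% interval 0.26 to 1.54). Syt2, a calcium sensor of fast release, went the other way, with 32.3, 24.5 and 24.2 in Mutyh-/-, 12.0, 9.25 and 17.9 in Ogg1-/- and 10.7, 18.4 and 20.6 in WT (log2 fold change -1.03, SE 0.37, 95% interval -1.81 to -0.25). As at Ache, WT lay near Ogg1-/- at this Syt2 peak. Another window annotated to Syt2, at chr1:134646392-134646792, gave a log2 fold change of 0.47 (SE 0.41) and was not a DER. The median of the list was -0.07.

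Glutamate receptors and scaffolds held 2 DERs among 41 peaks (4.88%, against 4.03% of all peaks), both lower in Ogg1-/-. Dlg4, which encodes the postsynaptic scaffold PSD-95, held 16.9, 29.9 and 30.9 scaled reads in Mutyh-/-, 19.3, 1.54 and 16.1 in Ogg1-/- and 13.1, 18.4 and 10.8 in WT at chr11:70019177-70019577. The value of Ogg1-/- replicate 2 was far below the other libraries, the knockouts overlapped, and the log2 fold change was -1.44 (SE 0.64, 95% interval -2.79 to -0.09). Another Dlg4 window, with under 7 scaled reads on average, gave a log2 fold change of -1.99, and one more gave 0.32, and neither was a DER. Homer2, a scaffold that links receptors to calcium stores, held 36.9, 39.5 and 25.9 and 14.5, 21.6 and 28.8, which overlap (log2 fold change -0.66, SE 0.30, 95% interval -1.30 to -0.02). Grin2a, an NMDA receptor subunit, had the smallest p among peaks higher in Ogg1-/- at 0.55 (SE 0.29), and the list median was 0.05. Without Ogg1-/- replicate 2, or without Mutyh-/- replicate 2, 0 peaks of this list were DERs.

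Oxidative phosphorylation held 4 DERs among 28 peaks (14.3%, against 4.03% of all peaks), all 4 higher in Ogg1-/-. Uqcrc2, of complex III, held 23.1, 19.2 and 23.4 scaled reads in Mutyh-/-, 32.5, 49.3 and 30.5 in Ogg1-/- and 35.7, 31.1 and 23.8 in WT, without overlap of the knockouts (log2 fold change 0.72, SE 0.27, 95% interval 0.15 to 1.29). Sdhc, of complex II, held 21.5, 29.9 and 30.0 and 38.6, 44.7 and 34.6, also without overlap (log2 fold change 0.52, SE 0.24, 95% interval 0.01 to 1.04). The complex I genes Ndufs7 and Ndufv2 overlapped between the knockouts, at 0.93 (SE 0.42) and 0.64 (SE 0.29). The list as a whole did not lean this way, with 13 peaks higher and 15 lower and a median of -0.02. Cox6c was the lower peak with the smallest p at -0.55 (SE 0.30), and Ndufb2, which is not in the list, was among the 10 lower promoters above. Without Ogg1-/- replicate 2 the count was 0, and without Ogg1-/- replicate 1 it was 1 higher and 1 lower, while the factors of the authors gave 1.

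Immediate early genes, which neurons switch on with activity, held 3 DERs among 29 peaks (10.3%, against 4.03% of all peaks). Btg2, an antiproliferative gene, held 26.1, 27.7 and 26.7 scaled reads in Mutyh-/-, 21.7, 4.63 and 15.6 in Ogg1-/- and 21.4, 18.4 and 16.2 in WT (log2 fold change -1.12, SE 0.46, 95% interval -2.10 to -0.14). Its Mutyh-/- libraries were nearly equal and its Ogg1-/- libraries wide apart. Jund, a member of the AP-1 family, held 13.8, 37.4 and 18.4 and 28.9, 49.3 and 41.5, and Ier5 held 21.5, 40.6 and 26.7 and 48.2, 47.8 and 39.8, and in both the knockouts overlapped (log2 fold changes 0.85 and 0.64, SEs 0.33 and 0.26). The list median was -0.08.

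Identity genes of neurons held 1 DER, among 5 interneuron peaks (20%, against 4.03% of all peaks). The excitatory list had 0 DERs among 23 peaks and a median of -0.09, with Neurod2 at 0.68 (SE 0.35) and Emx1 at -0.51 (SE 0.28). Of 20 interneuron genes 5 had a peak. Cck, a neuropeptide gene that marks some interneurons and is also active in pyramidal cells, was a DER with 20.0, 18.1 and 17.5 scaled reads in Mutyh-/-, 42.2, 30.8 and 28.2 in Ogg1-/- and 30.9, 29.7 and 28.1 in WT (log2 fold change 0.81, SE 0.28, 95% interval 0.22 to 1.41). All its Mutyh-/- libraries lay below all WT and Ogg1-/- libraries. Reln, the secreted guidance protein of Cajal-Retzius cells and interneurons, stood at -0.59 (SE 0.31).

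In axon guidance, 2 of 34 peaks were DERs (5.88%, against 4.03% of all peaks). Slit3, a repulsive ligand, held 30.7, 13.9 and 25 scaled reads in Mutyh-/- and 41.0, 35.5 and 31.1 in Ogg1-/-, without overlap (log2 fold change 0.67, SE 0.30, 95% interval 0.03 to 1.30). Sema6d, a semaphorin, held 35.3, 35.2 and 35.1 and 22.9, 23.1 and 26.5, also without overlap (log2 fold change -0.53, SE 0.24, 95% interval -1.04 to -0.02). WT at Sema6d spanned 42.8, 36.8 and 16.2, across both knockouts. The list median was 0.12.

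Antioxidant defence held 1 DER among 20 peaks (5%, against 4.03% of all peaks). Srxn1, which restores oxidised peroxiredoxins, held 13.8, 29.9 and 34.2 scaled reads in Mutyh-/-, 47.0, 50.9 and 28.2 in Ogg1-/- and 35.7, 48.1 and 39.0 in WT. The knockouts overlapped (log2 fold change 0.72, SE 0.33, 95% interval 0.04 to 1.41), and Gclc, which makes the first step of glutathione synthesis, stood at -0.30 (SE 0.23). Glycolysis had 0 DERs among 21 peaks and a median of -0.19, with Tpi1 at -0.80 (SE 0.39) and Ldha at 0.59 (SE 0.31). The 11 genes named by the study, which it chose on these samples, had 0 DERs among 14 peaks and a median of -0.10, with Rbfox3, the gene of NeuN itself, at 0.49 (SE 0.29) and the glutamate receptor gene Grm7 at -0.41 (SE 0.25).

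**Figure D4:**
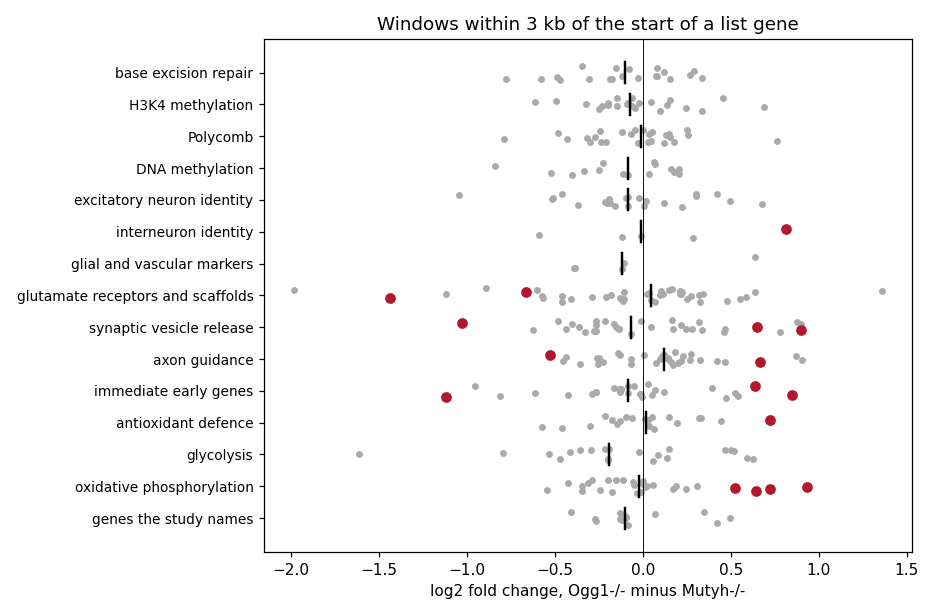
Log2 fold change (Ogg1-/- minus Mutyh-/-) of each peak within 3 kb of the start of a list gene, 1 row per list, with DERs as large red points, other peaks in grey and a black bar at the list median. Medians lie between -0.19 and 0.12, and the 4 oxidative phosphorylation DERs all lie to the right.

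**Figure D5:**
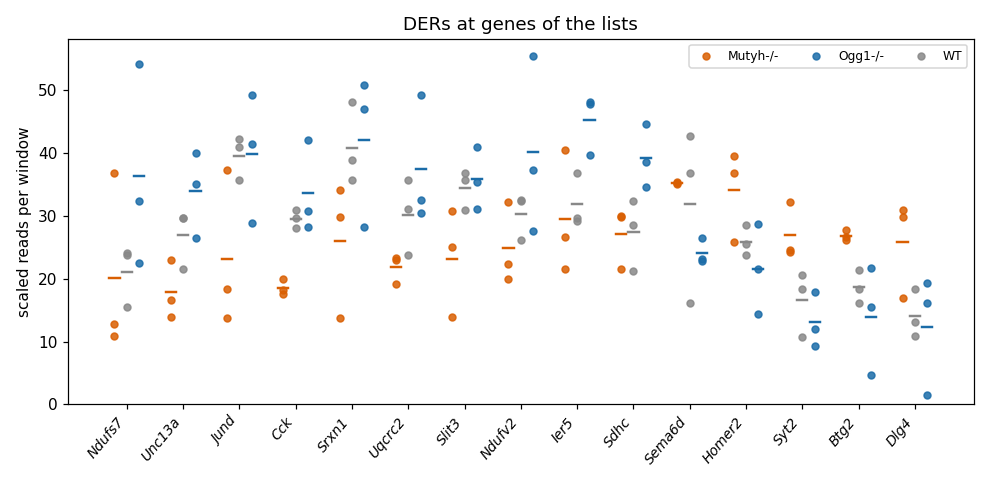
Scaled reads per library at 15 of the 16 DERs of the gene lists, ordered by log2 fold change, with Mutyh-/- in orange, WT in grey and Ogg1-/- in blue, and a bar at the mean of 3 libraries. The knockouts overlap at 7 of the 15 peaks, among them Ndufs7, Jund, Srxn1 and Dlg4.

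The labelled cell type was checked against its markers. Of 9 neuronal markers 7 had a promoter peak (Rbfox3, Slc17a7, Camk2a, Neurod2, Gad1, Snap25 and Syt1), while Neurod6 and Gad2 had none. Their summed level was 158 to 182 scaled reads in Mutyh-/- and 179 to 212 in Ogg1-/-. All 5 microglial and 3 vascular markers were without a peak, as were Gfap, Aqp4, Aldh1l1 and Gja1 of astrocytes and Olig1, Olig2, Sox10, Mog and Pdgfra of oligodendrocytes. Among the NeuN- peaks, however, astrocyte, microglial and vascular markers with a peak also numbered 0, and oligodendrocyte markers 1. Missing glial peaks thus do not tell the fractions apart. Neuronal markers with a NeuN- peak numbered 0. The peaks of Sox9 and Slc1a3 summed to 16.9 to 23.4 scaled reads in Mutyh-/- and 20.5 to 27.8 in Ogg1-/-, and that of Mbp to 30.0 to 35.2 and 21.3 to 26.2. Among the 5 peaks of the longer glial and vascular list 0 were DERs, with a median of -0.12, Slc1a3 at 0.64 (SE 0.59) and Mbp at -0.39 (SE 0.25). The part of other cells in any difference was not tested.

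DERs, 4.03% of all peaks, were counted by the position of their peaks. Promoter peaks held 473 DERs of 11771 (4.02%), distal intergenic peaks 21 of 408 (5.15%), exons 9 of 236 (3.81%) and introns 4 of 156 (2.56%). Chromosome 2 had the highest share, 54 of 1008 peaks (5.36%), 35 of them higher in Ogg1-/-, and chromosome X the lowest among the chromosomes with over 200 peaks, 5 of 202 (2.48%). Of the 3157 peaks with the highest level, 136 were DERs (4.31%), 90 higher and 46 lower in Ogg1-/-. Of the 3157 with the lowest, 109 were DERs (3.45%), 53 higher and 56 lower. Over all peaks 2.06% were DERs higher and 1.97% lower. The median log2 fold change was 0.01 over the peaks with the highest level and -0.04 over those with the lowest. Repeat peaks held 4 DERs of 63 (6.35%).

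Sequence letters in the 401 bp windows were counted on both strands as a description. The GC box GGGCGG was in 68.1% of all windows, in 71.5% of the DERs higher in Ogg1-/- and in 59.0% of the lower ones. The CCAAT box letters CCAAT were in 23.7%, 23.5% and 19.7%, the E-box CACGTG in 7.78%, 10.8% and 6.83%, and the AP-1 letters TGACTCA in 2.63%, 3.46% and 5.22%. Also counted were TATAAA, in 3.62%, 4.23% and 2.01%, TGACGTCA, in 1.27%, 1.54% and 0.803%, and GGGG, in 98.9%, 98.8% and 99.6%. The median number of CG dinucleotides in the central 300 bases was 27.5 for higher and 25 for lower DERs, against 26 overall.

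Polycomb marks were looked at where their peaks overlapped an H3K4me3 peak by at least 1 bp in the same sorted fraction. H3K27me3, the mark placed by Polycomb repressive complex 2, overlapped 200 H3K4me3 peaks, of which 9 were DERs (4.5%, against 4.03% of all H3K4me3 peaks). Suz12, a subunit of that complex, overlapped 235, of which 13 were DERs (5.53%), 10 higher and 3 lower in Ogg1-/-. These 235 peaks as a whole did not lean higher, with a median H3K4me3 log2 fold change of -0.08. The median was -0.09 over the 200 peaks with H3K27me3 and -0.00011 over all peaks. For the marks themselves, the same contrast gave 163 DERs of 4132 peaks for H3K27me3 (3.94%) and 18 of 775 for Suz12 (2.32%), with 0 adjusted calls in either by limma. The 1 peak that was a DER in both H3K4me3 and H3K27me3 was the repeat peak near Vmn1r77, where H3K27me3 differed by 1.67 (SE 0.63, adjusted p = 0.983) and Suz12 by 0.83 (SE 0.60, adjusted p = 0.997). The same direction in 3 antibodies at this peak was noticed after the values were seen. H3K27me3 there was 1.4, 7.69 and 13.6 in Mutyh-/- and 46.4, 7.26 and 23.8 in Ogg1-/-. Suz12 was 9.9, 7.66 and 14.9 in Mutyh-/- and 36.6, 10.98 and 17.6 in Ogg1-/-. The knockouts thus overlapped for H3K27me3 and for Suz12, and Ogg1-/- replicate 1 was the highest of the 6 libraries for each. Among promoters with Suz12, Bmp7, a secreted growth factor, was higher for H3K4me3 by 1.01 (SE 0.41) and for Suz12 by 0.64 (SE 1.26), and Nes, the gene of the progenitor filament nestin, stood at 1.21 (SE 0.57) and -0.35 (SE 0.84). Cdh1, the gene of E-cadherin, was lower for both, at -1.70 (SE 0.63) and -1.27 (SE 1.22). These genes were named after their values were seen, and in these cases the Suz12 values did not pass the test.

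The contrast was compared between neuronal and non-neuronal nuclei of the same genotypes. Of the H3K4me3 peaks, 3000 overlapped one to one with a peak of the NeuN- table, whose 6 libraries held 39320 to 118677 reads in peaks. The difference of the contrast between fractions passed an adjusted p of 0.05 at 0 of them (0%), with a smallest adjusted p of 0.936 in limma and 0.168 in edgeR, and at 121 (4.03%) by unadjusted p, against 140 in edgeR. In NeuN- nuclei the same contrast gave 111 DERs of 3270 peaks (3.39%). Of the 138 neuronal DERs among shared peaks, 71 had the same sign in NeuN- nuclei, 2 were DERs there in the same direction (P4ha2 and Tmem125) and 3 in the opposite one (Extl3, Rbm15 and Med7).

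Of the 20 named peaks, 7 could be followed into NeuN- nuclei, 5 with the opposite sign there and 2 with the same sign. Cnot6 stood at 0.97 in neurons and -0.25 in NeuN- nuclei, a difference of 1.21 (SE 0.62, adjusted p = 0.936). Lzic was at -1.20 and 0.09, a difference of -1.29 (SE 0.64). Vmn1r77 was at 1.66 and -0.47, a difference of 2.14 (SE 0.61). Scrn1 was at 0.82 and -1.31, a difference of 2.13 (SE 0.95), and Sirpa at 0.98 and -0.20, a difference of 1.17 (SE 0.70). The sign was opposite in these 5, and no difference passed the adjusted test. Iqcb1 was at 0.96 and 0.21, and Zcchc2 at -1.0 and -0.42, with the sign shared.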

How the data were processed

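Per the labels and the study's methods, reads were single-end and the authors mapped them to GRCm38 (Bowtie2 2.3.5.1). They called H3K4me3 regions with epic2, took those shared by replicates as consensus peaks, and used DiffBind 3.10.1 for read counts and ChIPseeker for annotation. How duplicates, blacklisted regions and input were handled is not given in the sources used here. The deposited values are signal, reads per 401 bp window divided by a factor per library. In each library 100% of values were whole multiples of 1 step within 0.01, so whole reads were recovered. Table names gave antibody and fraction. Input libraries were not analysed here.

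Reads were scaled by TMM (edgeR 4.0.16), transformed as log2(scaled reads + 1) and fitted over all peaks with limma 3.58.1 (trend, genotype as the only term, Benjamini-Hochberg adjustment, R 4.3.3). Since the deposited signal is not counts, limma was the main test, and edgeR and DESeq2 1.42.0 on recovered reads were alternatives. WT and DKO were scaled with the same reference library. The prior degrees of freedom were 12.2 against 4 residual.

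Named were the targeted genes, the 10 peaks with the smallest p in each direction (DER, knockouts not overlapping, at least 10 reads on average, 1 per gene), every DER of a gene list, and the member with the smallest p per list and direction. Values of 1 list DER and the state of 1 marker are not reported here. Other names were chosen after their values were seen. The comparison, members and lists were chosen with earlier results of these data known. The samples are pools, and p-values measure the spread between pools. Replicate numbers were not used to pair the libraries in the main test. Fraction differences were an interaction term over 12 libraries.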

Additional observations from a re-analysis of the deposited data

How the results depend on the processing

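The absence of peaks past an adjusted p of 0.05 held under all 22 alternatives, with a smallest adjusted p of 0.718 (edgeR). DERs numbered 509, 260 of them higher in Ogg1-/-. The library factors of the authors gave 185 and 147, and the DESeq2 Wald test 279 and 140. Leaving out each replicate gave 423 to 624 DERs and 174 to 358 higher ones, and each of these counts shared 215 to 344 DERs with the full set. The higher share was 63.6% to 64.4% without a Mutyh-/- library and 38.5% to 41.1% without an Ogg1-/- library. Without repeat peaks 520 were DERs, and without both Mutyh-/- replicate 1 and Ogg1-/- replicate 2 539 were, 164 of them shared (both chosen after seeing the data). Deviations of same-numbered libraries correlated at 0.0311, 0.0308 and -0.0199, which does not settle whether they shared a batch, and the labels do not say. The replicate block gave 506 DERs, 261 higher, with 0 adjusted calls.

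Of 1245 values of the 57 named peaks, 1243 kept their direction. Mbd1 ranged from -0.0595 to 0.395 when a replicate was left out, and Rbfox3 stood at -0.0091 without both libraries named above. Of the 36 named DERs, 26 were DERs without Mutyh-/- replicate 1 and 23 without Ogg1-/- replicate 2.

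The difference in total reads ranged from -62656 (without Ogg1-/- replicate 3) to 109069 with a replicate left out, that in promoter share from -0.0317 (without Mutyh-/- replicate 1) to 2.51 percentage points, and that in the share of the top 10% of peaks from -1.98 to 0.341 (without Mutyh-/- replicate 1). Without repeat peaks the 2 shares differed by 0.407 and -0.0912 points, against 1.63 and -1.19. Differences between fractions stayed at 0 adjusted calls in every alternative, with 36 (factors of the authors) to 223 peaks at an unadjusted p under 0.05, and 97 with the replicate block.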

Other observations

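Of the DERs, 22 had a log2 fold change over 2 in size, 11 at promoters and 9 distal to genes, and none of them averaged more than 14.8 scaled reads over the 6 libraries. The genes below were chosen after their values were seen. Zfp982, a zinc finger gene, was nearest to a distal peak with 1.78 scaled reads on average in Mutyh-/- and 16.2 in Ogg1-/- (log2 fold change 2.86, SE 1.02), and to another with 3.59 and 14.5 (2.46, SE 1.08). Other windows annotated to Zfp982 that were not DERs went both ways, among them -1.50 (SE 1.04), -0.88 (SE 0.83) and 0.66 (SE 1.00). Peaks near Speer4f1 and Gm21190, both on chromosome 5, differed by 2.58 (SE 1.04) and 2.19 (SE 0.89) in the same direction. The peak near Platr9, a long non-coding RNA gene, is wholly masked as repeat and averaged 9.71 scaled reads in Mutyh-/- with 0 reads in every Ogg1-/- library. Such windows can have near-identical copies, in which case their reads cannot be assigned with certainty, and all adjusted p-values were 0.943 in limma.

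At 7 peaks Mutyh-/- replicate 1 held 2319 reads in all while the other 5 libraries of the contrast each held exactly 0. No other library of the contrast had such a peak with 20 or more reads. Outside the contrast, WT replicate 2 and DKO replicates 1 and 3 held reads at all 7. Near Pak3 they held 344, 154 and 359, and WT replicate 1 held 199. Near Rab10os they held 293, 3 and 245. At 1 of them on chromosome 2, annotated to Lrrc4c (start 98662501), Mutyh-/- replicate 1 held 765 reads and WT replicate 2 held 681, with 0 in WT replicates 1 and 3. At the neighbouring repeat window (start 98666960), Mutyh-/- replicate 1 held 7996 reads, Ogg1-/- replicate 3 held 798 and the other 4 libraries held 0. Whether input reads were subtracted before deposit is not given in the sources used here, so a 0 need not mean that no read was there.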
